A study of Oryctolagus cuniculus with 12 samples.

Results

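The difference in gene expression between osteoarthritis (OA) and control that 2 layers of the rabbit jaw joint shared was taken from all 12 libraries of the series, by comparing OA with control averaged over the layers and keeping genes whose change had the same sign in both. Of 14438 genes tested, 6909 had the same sign in both zones, 3486 higher in OA and 3423 lower. Of those 6909, 194 passed the averaged test: 176 were higher in OA and 18 were lower. Bulk RNA was sequenced from 2 layers of the mandibular condyle of wild-type rabbits (Oryctolagus cuniculus), the fibrous superficial zone and the condylar cartilage beneath it. In the OA group a 2.5 mm hole had been punched in the posterior-lateral disc of the temporomandibular joint, without cutting the disc attachments. The 4 groups of 3 libraries were OA superficial zone, control superficial zone, OA condylar cartilage and control condylar cartilage, and every group was wild type. The labels do not give age, sex, the time after surgery, whether control joints were opened, or which zones share an animal.

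The condyle is covered by a fibrous layer that holds progenitor cells and makes lubricin, and the cartilage below it grows, hypertrophies and is replaced by bone that contains marrow. Chondrocytes carry a circadian clock, in which ARNTL (BMAL1) pairs with CLOCK or NPAS2 to switch on genes such as the PER and CRY repressors and CIART, which hold that pair back. Neutrophils and eosinophils pack their granules with antimicrobial proteins during development in the marrow, so transcripts of those proteins are abundant in marrow precursors.

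The library totals were 10710067 to 16769536 counts in OA and 7326255 to 14810886 in control. OA superficial zone libraries 2 and 3 were near-duplicates, and so were OA condylar cartilage libraries 1 and 2, with biological coefficients of variation of 0.042 and 0.0597 against 0.216 to 0.631 for other pairs within groups. Each of these pairs was summed to 1 sample, which left 2 OA and 3 control samples in each zone. OA values are therefore given for library 1 and then the sum of 2 and 3 in the superficial zone, and for the sum of 1 and 2 and then library 3 in the condylar cartilage. Levels are CPM, the count divided by the library total in units of 1000000 reads, after the total was multiplied by its TMM factor, a factor that equalises the bulk of genes between libraries.

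Library 1 of the OA superficial zone and library 3 of the control condylar cartilage stood apart from their groups. Levels in this paragraph are CPM after TMM scaling of the 12 libraries separately. COL2A1, the main collagen of cartilage, had 51233, 2511 and 2583 CPM in the OA superficial zone and 42753, 56682 and 935 CPM in the control condylar cartilage. COL1A1, the collagen of bone and fibrous tissue, had 269090 CPM in the first of these libraries, against 46874 and 47337 in the other two of its group. It had 273620 CPM in library 3 of the control condylar cartilage, against 163520 and 116860 in the other two. Without both libraries, 572 genes were higher and 378 lower with the same sign in both zones, against 176 and 18 with them, and 160 and 18 genes were common to both fits. That smaller fit leaves 1 sample in the OA superficial zone, which is assumed to vary like the other groups.

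The 176 higher genes were 1.22% of the genes tested and the 18 lower genes were 0.125%. At an unadjusted p under 0.05, 1084 genes were higher and 478 lower with the same sign in both zones. No gene passed with opposite signs in the main edgeR fit, with 123 at an unadjusted p under 0.05. DESeq2 gave 14 such genes, limma-voom 0, and edgeR on 12 separate libraries 30. Without control superficial zone 1, 2 or 3, the higher genes numbered 35, 43 and 56 and the lower genes 5, 5 and 6. Without control condylar cartilage 1, 2 or 3 they numbered 67, 87 and 402 higher and 5, 12 and 63 lower. Without OA superficial zone 1 there were 101 higher and 52 lower genes, and without OA condylar cartilage 3 there were 156 and 7. The threshold fell between LPL and IGF2BP2, both with an adjusted p of 0.0495, and COL17A1 with 0.0505. Over the higher genes the median log2 fold change was 2.98 averaged, 2.39 in the superficial zone and 3.98 in the condylar cartilage, against a median of -0.00012 for the averaged value over all genes. The medians were 2.98, 2.33 and 3.66 with genes undetected in a control group set at their lower bound. Over the lower genes the medians were -2.43 averaged, -2.77 and -2.60.

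OA and control samples did not overlap in either zone for 134 of the 176 higher genes and 17 of the 18 lower genes, beside 516 (3.57%) and 244 (1.69%) of all genes in those directions. Tested alone, the condylar cartilage called 125 genes (0.866%) and the superficial zone 3 (0.0208%). Of the higher genes, 97 were among those called in the condylar cartilage alone and 3 among those called in the superficial zone alone, and 129 had the larger change in the condylar cartilage. No gene (0%) passed the test of a difference in effect between zones in the main edgeR fit, with 1265 genes at an unadjusted p under 0.05. DESeq2 called 116 genes for that difference, limma-voom 0, and edgeR on 12 separate libraries 98, or 92 with a replicate block.

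**Figure D1:**
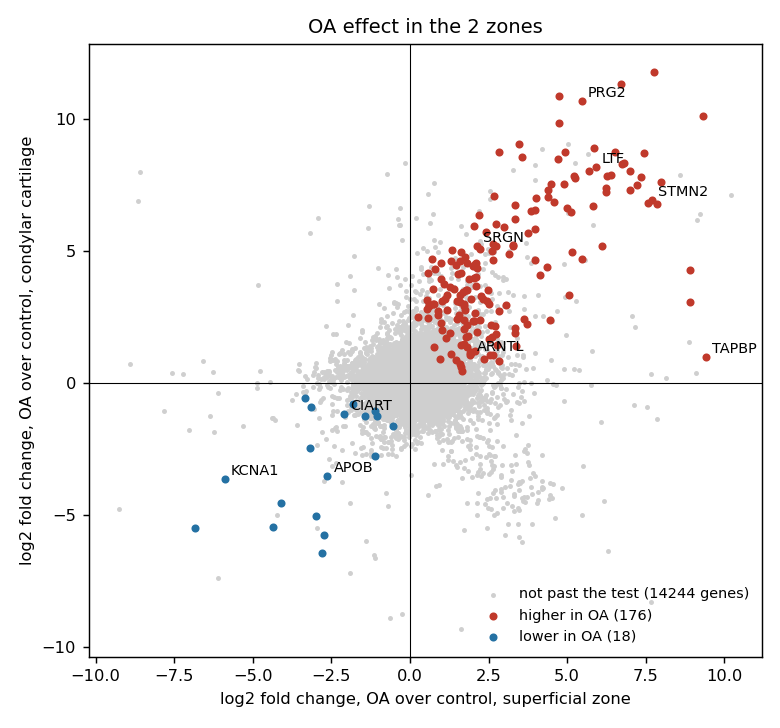
Each point is a gene, with the log2 fold change of OA over control in the superficial zone (x axis) and in the condylar cartilage (y axis). The 176 genes higher in OA (red) lie at the upper right and the 18 lower genes (blue) at the lower left, while grey genes did not pass the averaged test.

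Genes of granulocyte granules rose. Of 21 tested genes in the list of neutrophil and marrow granules, 14 rose, none fell, and 20 had the higher sign in both zones. The list's median log2 fold change was 5.81, with 3.98 in the superficial zone and 6.57 in the condylar cartilage. Summed over the list, the level was 1407 and 139 CPM in the OA superficial zone, against 140, 141 and 292 CPM in control. The sum was 4465 and 2385 CPM in the OA condylar cartilage, against 1908, 2264 and 1541 CPM in control. The list's median log2 of CPM plus 0.5 was 6.45 and 4.96 in the OA condylar cartilage, against -0.62, -0.81 and 0.95 in control. The control sum there therefore came almost wholly from members above that median and does not describe the list as a set. Among the members that passed were CAMP, MCP-1, LTF, S100A8, BPI, LCN2, MPO, S100A12, PGLYRP1, S100A9, LYZ, CXCR2 and MMP8.

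LTF (ENSOCUG00000023796) encodes lactoferrin, an iron-binding protein of neutrophil granules. It had 40.0 and 1.92 CPM in the OA superficial zone, against 0.109, 0.449 and 0.411 CPM in the control superficial zone. Its levels in the condylar cartilage were 362 and 110 CPM in OA, against 0, 0.287 and 2.09 CPM in control. Every OA sample was above every control sample of its zone, and the sample with the 2 near-duplicate libraries was the lower one in the superficial zone. The averaged log2 fold change was 7.05 ± 0.93 (SE), with an adjusted p of 0.00656.

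CAMP, the cathelicidin antimicrobial peptide, had 28.9 and 1.76 CPM in the OA superficial zone, against 0.327, 0.224 and 0.308 CPM in control. It had 265 and 81.5 CPM in the OA condylar cartilage, against 0.595, 0.0717 and 1.43 CPM in control, and its averaged log2 fold change was 6.87 ± 0.83 with an adjusted p of 0.00489. S100A8, a calcium-binding subunit of calprotectin, had 15.9 and 1.54 CPM in the OA superficial zone, against 0.109, 0.299 and 0.205 CPM in control. Condylar cartilage samples had 213 and 67.2 CPM in OA and 0, 0.0717 and 1.87 CPM in control. Its averaged log2 fold change was 6.51 ± 0.88 (adjusted p 0.00733).

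MCP-1, the symbol that the files give to a rabbit corticostatin or defensin of neutrophils, had 62.8 and 3.38 CPM in the OA superficial zone and 855 and 294 CPM in the OA condylar cartilage. Its control samples had 0.15 to 0.411 CPM in the superficial zone and 0.143 to 4.39 CPM in the condylar cartilage. The change was 7.57 ± 0.96 on the log2 scale (adjusted p 0.00497), and reads shared with other defensin genes make the level of this gene uncertain. BPI, which binds bacterial lipopolysaccharide, rose by 6.74 ± 0.94 (adjusted p 0.00787). LCN2, which binds bacterial siderophores, rose by 7.64 ± 1.08 (adjusted p 0.00834). MMP8, the neutrophil collagenase, was undetected in all 6 control samples and had 3.78 and 0.137 CPM in the OA superficial zone and 43.0 and 13.1 CPM in the OA condylar cartilage. Against a floor of 3 counts over a zone's controls it was at least 21.1-fold higher in the superficial zone and at least 278-fold higher in the condylar cartilage (adjusted p 0.031).

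Leaving out control superficial zone 1 raised the adjusted p of BPI and LCN2 to 0.0507, and leaving out control superficial zone 2 did the same for LCN2. Without OA superficial zone 1 the averaged log2 fold changes were 5.34 for LTF, 5.34 for CAMP, 5.29 for S100A8, 5.95 for MCP-1, 4.81 for BPI and 6.02 for LCN2. Without control condylar cartilage 3 they were 8.08, 7.51, 8.27 and 8.59 for LTF, CAMP, S100A8 and MCP-1, and 11.02 for LCN2. The remaining condylar controls of LTF, S100A8 and LCN2 were at or near 0 CPM, so these larger values rest on few or no control counts. Without both libraries that stood apart, LCN2 was at 15.6 in the condylar cartilage and 3.26 in the superficial zone. BPI was 7.40 without control superficial zone 3. Of the list's 21 genes, 4 passed without control superficial zone 1, 6 without control superficial zone 2 and 9 in limma-voom. In the superficial zone the median over the neutrophil list was 1.90 without OA superficial zone 1. Here as elsewhere in these bulk samples, more cells of a type and more RNA per cell cannot be told apart.

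Eosinophil genes followed. Of 6 tested genes in the list of eosinophil, basophil and mast cell genes, 4 rose, all 6 had the higher sign in both zones, and the median log2 fold change was 5.52. The median was 4.60 with genes undetected in a control group at their bound. PRG2, the eosinophil major basic protein, had 6.22 and 0.44 CPM in the OA superficial zone, against 0, 0.15 and 0 CPM in control. It had 112 and 27.2 CPM in the OA condylar cartilage, against 0, 0 and 0.11 CPM in control (adjusted p 0.00489). With 3 or fewer counts in each control group, the ratio of OA to control was 22.9 in the superficial zone (exact conditional 95% interval 6.07 to 193) and 2606 in the condylar cartilage (468 to 102957), intervals that cover counting error only. EPX, eosinophil peroxidase, had 7.97 and 0.879 CPM in the OA superficial zone and 115 and 28.5 CPM in the OA condylar cartilage. Its controls had 0.308 to 0.545 and 0.0717 to 1.76 CPM in those zones, and it rose by 4.78 ± 0.75 (adjusted p 0.0122). PRG3, a close relative of PRG2 that may share reads with it, and FCER1A, the IgE receptor chain of basophils and mast cells, also passed, with adjusted p 0.0175 and 0.0285. Of the list's 6 genes, 1 or fewer passed without any one control superficial zone library and in limma-voom, and 2 without OA superficial zone 1. EPX lost its call without control superficial zone 1, 2 or 3 (adjusted p 0.057, 0.0545 and 0.0516), and its log2 fold change was 3.68 without OA superficial zone 1. PRG3 lost its call without any control superficial zone library or OA superficial zone 1 (adjusted p 0.0508 to 0.0881). FCER1A lost it without those or control condylar cartilage 1 or 2 (0.0576 to 0.101).

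Red cell genes rose as well, with 12 of 17 tested genes of the erythroid list past the test, 16 higher in both zones and a median log2 fold change of 3.26. The list's median was 2.07 in the superficial zone and 4.68 in the condylar cartilage, and 0.293 in the superficial zone without OA superficial zone 1. The count of 12 moved with single libraries. It was 2 or fewer without any one control superficial zone library, and 4 without control condylar cartilage 1, without OA superficial zone 1 and in limma-voom. It was 7 without control condylar cartilage 2. EPB42, protein 4.2 of the red cell membrane, had 5.41 and 1.02 CPM in the OA superficial zone, against 0.872, 0.449 and 0.924 CPM in control. Its condylar cartilage levels were 72.9 and 21.97 CPM in OA, against 2.38, 1.08 and 3.19 CPM in control, and it rose by 3.23 ± 0.54 (adjusted p 0.0154). ALAS2, the first enzyme of haem synthesis in red cell precursors, had 39.7 and 9.18 CPM in the OA superficial zone and 11.3, 5.46 and 4.62 CPM in control, so that 1 control sample lay above 1 OA sample. It had 444 and 143 CPM in the OA condylar cartilage, against 9.68, 4.59 and 18.2 CPM in control, and rose by 3.26 ± 0.52 (adjusted p 0.0128). RHAG, a Rh complex ammonium channel, and TRIM58, a ubiquitin ligase of late erythroblasts, also rose, with adjusted p 0.0113 and 0.0156. Leaving out control superficial zone 2 or 3 ended the call of ALAS2 (adjusted p 0.0545 and 0.0514). Without OA superficial zone 1 the log2 fold changes were 2.46 for EPB42 and 2.57 for ALAS2. RHAG lost its call without control superficial zone 1 or 2 (adjusted p 0.0569 and 0.0521). EPB42 and TRIM58 lost theirs without any control superficial zone library or control condylar cartilage 1 (0.0501 to 0.0742).

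**Figure D2:**
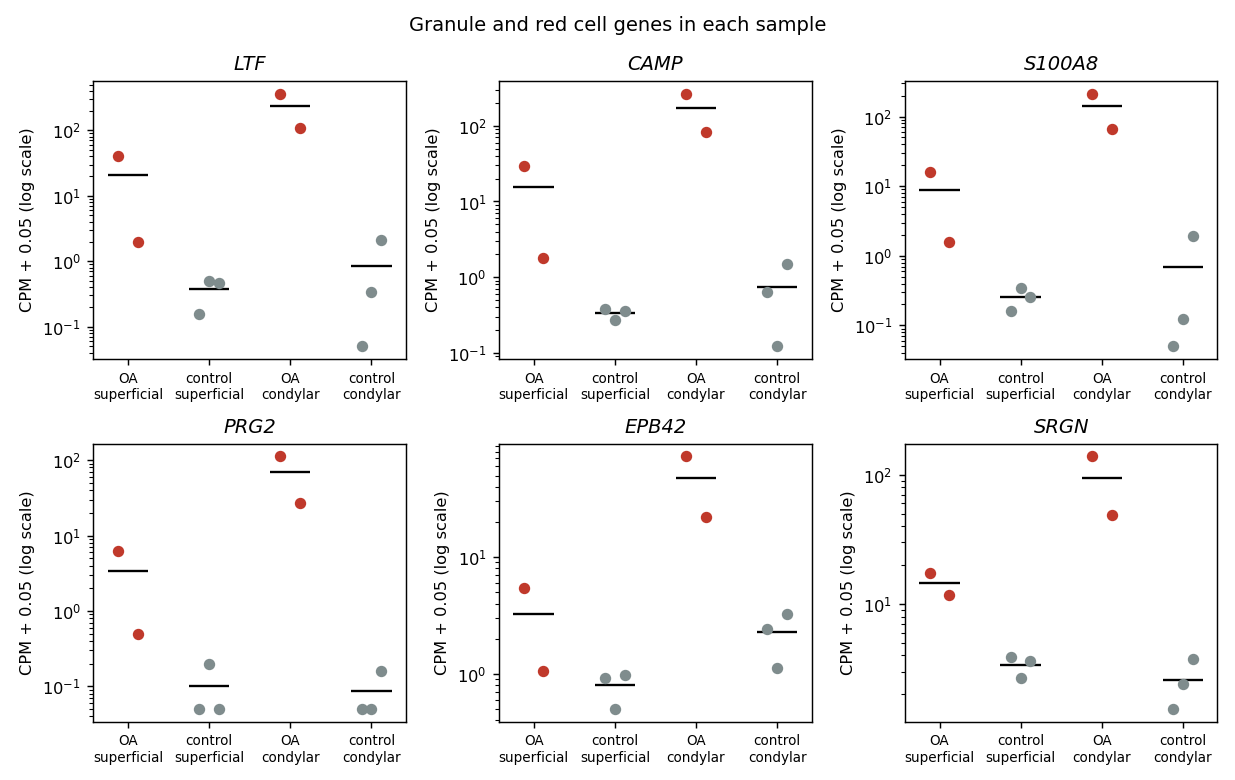
CPM plus 0.05, on a log scale, of 6 genes in the 2 OA and 3 control samples of each zone, with bars at the group means. All OA samples of these genes lie above all control samples of the same zone, and the OA condylar cartilage is the highest group.

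The 4 lists of neutrophil, eosinophil, erythroid and megakaryocyte genes held 49 tested genes, of which 31 rose with all libraries in the fit. In the megakaryocyte and platelet list, 1 of 5 genes rose, TUBB1, the tubulin of platelets, with an adjusted p of 0.0409 that lay above the threshold in 7 of 12 fits without 1 library. Summed over the erythroid list, the level was 440 and 161 CPM in the OA superficial zone, against 162, 143 and 143 CPM in control. It was 3661 and 1258 CPM in the OA condylar cartilage, against 340, 378 and 271 CPM in control. How far marrow or blood carried with the dissected tissue accounts for these genes was not tested, and marrow content and OA cannot be told apart in the condylar cartilage, where every OA sample was higher.

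The gene with the smallest p among those with a symbol was SRGN, which encodes serglycin, the proteoglycan core of secretory granules in blood cells. It had 17.3 and 11.8 CPM in the OA superficial zone, against 3.81, 2.62 and 3.59 CPM in control, and 139 and 48.9 CPM in the OA condylar cartilage, against 1.49, 2.37 and 3.73 CPM in control. The groups did not overlap, the averaged log2 fold change was 3.66 ± 0.35 (adjusted p 0.00128), and the call held in all 24 alternatives. PKHD1L1, a large membrane protein whose transcript is found in blood cells, rose by 4.87 ± 0.53 (adjusted p 0.00332), and by 5.77 without control condylar cartilage 3. MS4A3, a membrane protein of developing granulocytes, had 3.92 and 0.632 CPM in the OA superficial zone and 79.5 and 24.1 CPM in the OA condylar cartilage, with controls at 0 to 0.103 and 0 to 0.549 CPM (adjusted p 0.00483). CHIT1, a chitinase of macrophages and neutrophils, had 4.19 and 0.797 CPM in the OA superficial zone and 30.7 and 9.49 CPM in the OA condylar cartilage, with controls at 0 to 0.218 and 0 to 0.149 CPM (adjusted p 0.00489). ATP8B4, a phospholipid-flipping ATPase, rose by 2.14 ± 0.27 (adjusted p 0.00489), with the smaller part in the superficial zone, where the log2 fold change was 0.72 ± 0.38. CES1, a carboxylesterase of liver and macrophages, rose by 3.33 ± 0.47 (adjusted p 0.00834). ATP8B4 lost its call in the additive model and in limma-voom (adjusted p 0.0703 and 0.0784), and in limma-voom so did MS4A3 (0.0539), CHIT1 (0.0676) and CES1 (0.0985).

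Macrophage markers leaned the same way with fewer calls. Of 16 tested genes of the macrophage and myeloid list, 14 had the higher sign in both zones and 1 rose, ITGAM, the alpha chain of the Mac-1 integrin. ITGAM had 29.1 and 12.8 CPM in the OA superficial zone, against 4.03, 2.92 and 4.21 CPM in control, and 92.5 and 29.0 CPM in the OA condylar cartilage, against 4.76, 2.08 and 9.12 CPM in control. Its log2 fold change was 3.00 ± 0.44 (adjusted p 0.00902, and 0.0507 without control superficial zone 1). Neutrophils carry ITGAM too. C1QC and TYROBP, more usual macrophage markers, had log2 fold changes of 1.43 and 1.097 and adjusted p 0.0592 and 0.0642. Without the 2 libraries that stood apart, the median log2 fold change over the 16 genes was 1.14, against 0.94 with all libraries. In that fit C1QC was at 1.53 and TYROBP at 1.04.

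The lymphocyte list had 1 riser among 9 tested genes, JCHAIN, the joining chain of IgM and IgA in plasma cells, and 8 of the 9 were higher in both zones. JCHAIN had 3.38 and 0.769 CPM in the OA superficial zone and 15.4 and 4.65 CPM in the OA condylar cartilage, with controls at 0.308 to 0.374 and 0.595 to 2.31 CPM (log2 fold change 2.74 ± 0.57, adjusted p 0.0414). Leaving out any control superficial zone library, control condylar cartilage 1 or 2, or OA superficial zone 1 raised that p to between 0.0989 and 0.13, and the log2 fold change was 2.07 without the last of these.

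In the antigen presentation list 12 of 14 tested genes were higher in both zones and 1 passed. That gene was TAPBP, tapasin, which loads peptides onto class I molecules. It was undetected in the 3 control superficial zone samples and had 7.03 and 3.96 CPM in the OA superficial zone, at least 59.1-fold higher. In the condylar cartilage it had 13.4 and 9.63 CPM in OA, against 6.40, 2.94 and 7.91 CPM in control, a log2 fold change of 1.01 ± 0.51. The averaged adjusted p was 0.00656 and the test of the difference between zones gave an adjusted p of 0.24, while the additive model of zone and state gave 0.186 for the OA effect. RLA-A3, a rabbit class I heavy chain that is not on the list and was picked after its values were seen, had 111 and 117 CPM in the OA superficial zone, against 60.8, 52.0 and 63.4 CPM in control. In the condylar cartilage it had 86.2 and 66.0 CPM in OA, against 33.9, 39.9 and 48.3 CPM in control (log2 fold change 0.93 ± 0.20, adjusted p 0.0455), and reads shared with other class I genes make it uncertain.

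Genes of eicosanoid synthesis and sensing rose in part. Of 12 tested genes of the prostaglandin list, 4 rose, 7 were higher and none lower in both zones, and the median log2 fold change was 0.96. The count was 1 or fewer without any one control library other than condylar cartilage 3, in the additive model and in limma-voom. It was 2 without OA superficial zone 1, condylar cartilage 2 or condylar cartilage 3. ALOX5, the 5-lipoxygenase that starts leukotriene synthesis, had 29.3 and 17.6 CPM in the OA superficial zone, against 7.41, 6.66 and 6.67 CPM in control. It had 23.6 and 8.96 CPM in the OA condylar cartilage, against 1.64, 1.51 and 4.06 CPM in control, and rose by 2.26 ± 0.36 (adjusted p 0.0137). Its partner ALOX5AP, the activating protein of that enzyme, rose by 2.26 ± 0.39 (adjusted p 0.0175). PTGER2, a receptor for prostaglandin E2, rose by 2.33 ± 0.49 (adjusted p 0.0448).

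PTGS1, the constitutive cyclooxygenase, had 92.2 and 59.3 CPM in the OA superficial zone, against 23.1, 29.0 and 19.4 CPM in control. In the condylar cartilage it had 47.6 and 51.6 CPM in OA and 41.5, 27.2 and 39.6 CPM in control (log2 fold change 1.06 ± 0.23, adjusted p 0.0491). The inducible cyclooxygenase PTGS2 had opposite signs in the zones, -1.54 ± 0.63 in the superficial zone and 0.16 ± 0.60 in the condylar cartilage, and did not pass. ALOX5 lost its call without control superficial zone 1, 2 or 3 (adjusted p 0.057, 0.0545 and 0.0521) and ALOX5AP without control superficial zone 1 or 2 or control condylar cartilage 1 or 2 (0.0504 to 0.0756). PTGER2 lost it in 8 and PTGS1 in 9 of the 12 fits without 1 library, with adjusted p up to 0.123 and 0.139. Leukocytes express ALOX5 and ALOX5AP, and the part of the granulocyte markers that moved with them was not tested.

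Complement and adhesion genes gave 1 call each. C5AR1, the receptor for the complement fragment C5a, had 16.2 and 11.3 CPM in the OA superficial zone, against 4.03, 3.37 and 5.03 CPM in control. It had 15.9 and 5.58 CPM in the OA condylar cartilage, against 1.04, 1.22 and 1.76 CPM in control, and rose by 2.36 ± 0.34 (adjusted p 0.00865), as 1 of 13 tested complement genes, of which 9 were higher in both zones. VCAM1, an adhesion molecule that binds leukocytes, rose by 1.89 ± 0.37 (adjusted p 0.0319) as 1 of 17 tested cytokine and NF-kB genes, a list whose median was 0.40. VCAM1 lost its call without any control superficial zone library, control condylar cartilage 1 or 2, or OA superficial zone 1 (adjusted p 0.0619 to 0.109).

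Clock genes moved in opposite directions within the loop. ARNTL and NPAS2, which form the activating pair, rose, and CIART, a repressor of that pair, fell. ARNTL (ENSOCUG00000005940) had 41.6 and 60.0 CPM in the OA superficial zone, against 15.3, 10.8 and 14.3 CPM in control. It had 34.5 and 48.5 CPM in the OA condylar cartilage, against 18.6, 17.9 and 22.3 CPM in control. The groups did not overlap in either zone, the log2 fold change was 1.503 ± 0.22 (adjusted p 0.00865), and the call held in all 24 alternatives, with the highest adjusted p at 0.0469.

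NPAS2 had 46.6 and 51.4 CPM in the OA superficial zone, against 17.0, 15.7 and 14.7 CPM in control, and 22.04 and 27.8 CPM in the OA condylar cartilage, against 16.5, 11.2 and 21.6 CPM in control. Its log2 fold change was 1.12 ± 0.23 (adjusted p 0.0364). CIART had 5.13 and 5.61 CPM in the OA superficial zone, against 29.0, 20.3 and 19.9 CPM in control, and 3.15 and 4.31 CPM in the OA condylar cartilage, against 8.19, 10.7 and 5.82 CPM in control. It fell by 1.62 on the log2 scale, with an SE of 0.28 and an adjusted p of 0.0167. NPAS2 lost its call without any control superficial zone library, control condylar cartilage 1 or 2, or OA condylar cartilage 3 (adjusted p 0.0829 to 0.13), and CIART without any control superficial zone library or control condylar cartilage 1 (0.0521 to 0.0655).

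The other clock genes did not pass. NFIL3, a repressor of clock output, had a log2 fold change of 1.55 ± 0.35 (adjusted p 0.0615) with no overlap in either zone, and CLOCK had 0.08 ± 0.26. PER2 had 23.8 and 6.95 CPM in the OA superficial zone, against 44.3, 42.5 and 22.3 CPM in control, and 4.40 and 4.71 CPM in the OA condylar cartilage, against 8.93, 9.97 and 9.45 CPM in control (log2 fold change -1.16 ± 0.35, adjusted p 0.167). Of 9 tested activators and related genes 2 rose and 6 were higher in both zones, and of 9 repressors and outputs 1 fell and 6 were lower in both zones. Without the 2 libraries that stood apart, NFIL3 passed too (log2 fold change 1.79, adjusted p 0.012), and PER1, PER2 and TEF passed in the lower direction beside CIART, with log2 fold changes of -1.36, -1.74 and -1.14. The labels give no time of day for any sample, so the time of tissue collection and OA cannot be told apart.

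**Figure D3:**
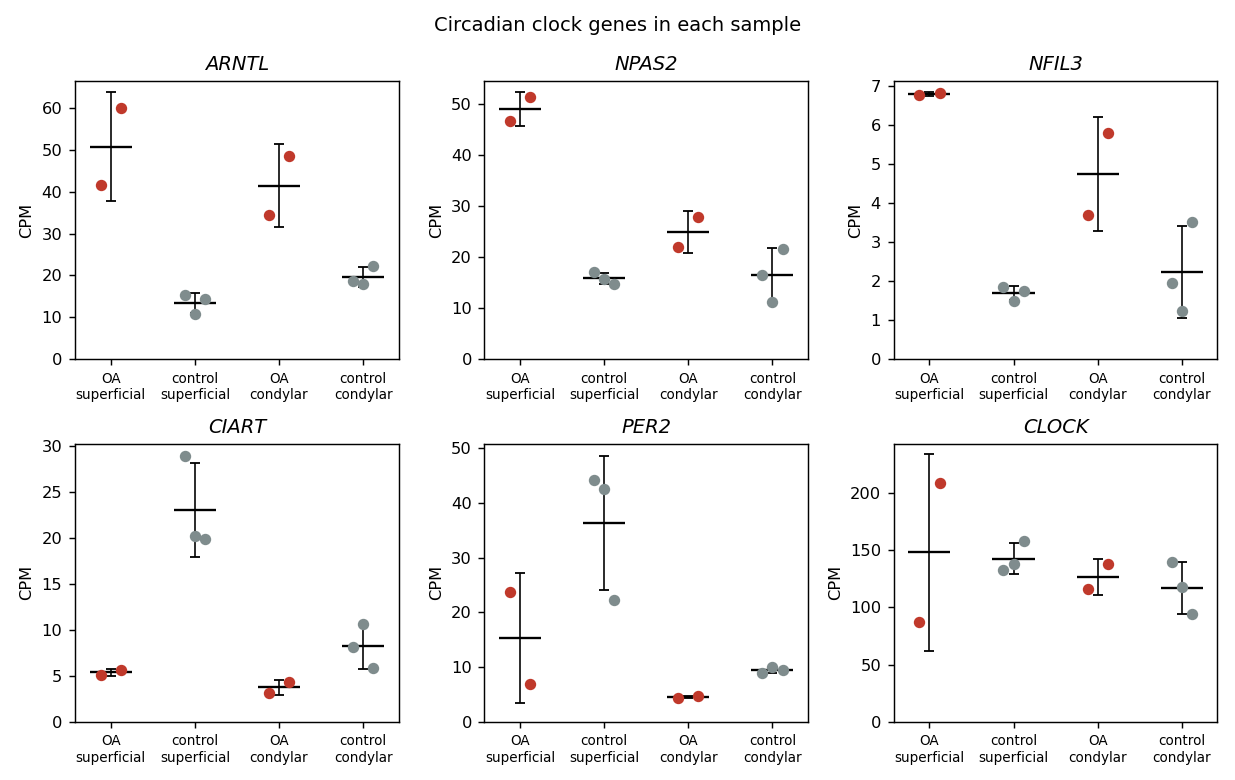
CPM of 6 clock genes in the 2 OA and 3 control samples of each zone, with bars at the group means and whiskers of 1 SD. ARNTL, NPAS2 and NFIL3 are higher in every OA sample than in the controls of the same zone, CIART is lower in every OA sample, PER2 overlaps in the superficial zone and CLOCK overlaps in both zones.

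Among matrix genes, CILP was the 1 of 15 tested cartilage matrix genes that passed. CILP, a cartilage intermediate layer protein that binds transforming growth factor beta, had 533 and 177 CPM in the OA superficial zone, against 71.8, 133 and 49.5 CPM in control. It had 71.1 and 58.8 CPM in the OA condylar cartilage, against 5.81, 14.5 and 10.4 CPM in control, and rose by 2.36 ± 0.38 (adjusted p 0.0139, and 0.0655 without control superficial zone 1). MATN4, a matrilin of the cartilage matrix, had a log2 fold change of -1.32 (adjusted p 0.0538). Without the 2 libraries that stood apart, the list's median log2 fold change was -1.29, against 0.36 with all libraries. In that fit ACAN was at -1.46, MATN3 at -2.30, MATN4 at -1.52, HAPLN1 at -1.75, COL11A1 at -1.52 and COL11A2 at -1.51. CILP was at 1.83. With all libraries, ACAN, the core of aggrecan, had 14816 and 1983 CPM in the OA superficial zone, against 5975, 5738 and 4566 CPM in control, and 3030 and 4559.6 CPM in the OA condylar cartilage, against 9168, 11060.5 and 426 CPM in control, and its signs were opposite.

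Of 15 tested genes of a panel commonly measured in OA, 4 had the same sign in both zones and none of them passed. TIMP1, an inhibitor of matrix metalloproteinases, had 148 and 98.1 CPM in the OA superficial zone, against 235, 221 and 219 CPM in control, and 217 and 260 CPM in the OA condylar cartilage, against 611, 736 and 405 CPM in control. Its samples did not overlap, with a log2 fold change of -1.08 ± 0.25 and an adjusted p of 0.0642, against 0.00366 without the 2 libraries that stood apart. PRG4, which encodes lubricin, had a log2 fold change of 1.06 ± 0.30 (adjusted p 0.139), ADAMTS5, an aggrecan-cleaving protease, 0.73 ± 0.23 (0.195), and TIMP3 0.49 ± 0.35 (0.696). Without those 2 libraries PRG4 passed, with an adjusted p of 0.0161. The signs were opposite in the zones for COL2A1, ACAN, SOX9, COL10A1, RUNX2, COL1A1, MMP3, MMP13, ADAMTS4, PTGS2 and VEGFA, and COMP and IL6 were not among the symbols tested.

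Lipid genes gave single calls. LPL, lipoprotein lipase, had 70.3 and 49.6 CPM in the OA superficial zone, against 11.9, 9.35 and 4.11 CPM in control, and 69.1 and 45.6 CPM in the OA condylar cartilage, against 17.6, 19.4 and 59.7 CPM in control (log2 fold change 1.83 ± 0.39). Its adjusted p of 0.0495 was above the threshold in 9 of the 12 fits without 1 library, at up to 0.127. IDI2, an isopentenyl diphosphate isomerase, rose by 3.43 ± 0.59 (adjusted p 0.0175), whereas 12 of the 19 tested genes of sterol and isoprenoid synthesis were lower in both zones and none of those passed. Without the 2 libraries that stood apart, the median log2 fold change over the 19 genes was -0.75, against -0.43 with all libraries. In that fit CYP51A1 was at -1.22, SQLE at -1.13 and EBP at -1.07. IDI2 lost its call without any control superficial zone library or control condylar cartilage 1 (adjusted p 0.0514 to 0.0817), and its log2 fold change was 4.25 without control condylar cartilage 3.

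APOB was the most firmly lower gene with a symbol that codes for protein. APOB, the structural protein of low-density lipoprotein, had 0.676 and 1.51 CPM in the OA superficial zone, against 7.85, 6.28 and 7.70 CPM in control. It had 0.951 and 0.929 CPM in the OA condylar cartilage, against 15.5, 4.30 and 12.4 CPM in control. The groups did not overlap, the gene fell by 3.06 on the log2 scale with an SE of 0.43 (adjusted p 0.00811), and it passed in 23 of 24 alternatives, limma-voom giving 0.164. A Metazoa_SRP RNA (ENSOCUG00000033623), a copy of the RNA of the signal recognition particle, had a smaller p and fell by 4.01 with an SE of 0.50 (adjusted p 0.00489), though near-identical copies make its counts uncertain.

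KCNA1, a voltage-gated potassium channel, had 0 and 0.192 CPM in the OA superficial zone, against 6.87, 10.8 and 8.42 CPM in control. In the condylar cartilage it had 0 and 0.0664 CPM in OA and 0.149, 0.502 and 0.33 CPM in control (adjusted p 0.00924, and 0.0507 without control superficial zone 2). ROBO2, a receptor for the guidance protein SLIT, had 37.8 and 42.2 CPM in the OA superficial zone, against 130, 152 and 140 CPM in control, and 165 and 208 CPM in the OA condylar cartilage, against 363, 321 and 270 CPM in control. It fell by 1.29 on the log2 scale, with an SE of 0.21 (adjusted p 0.014). SLIT1, a ligand of that receptor family that was picked after its values were seen, was higher, with 4.86 and 1.87 CPM in the OA superficial zone and 1.60 and 1.39 CPM in the OA condylar cartilage, and controls at 0.109 to 0.513 and 0 to 0.0717 CPM (adjusted p 0.0113).

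Fetal growth and imprinted genes gave 3 of the lower calls among 13 tested genes, 7 of which were lower in both zones. PEG10, a retrotransposon-derived gene expressed from the paternal allele in mammals studied, had 58.0 and 41.8 CPM in the OA superficial zone, against 131, 92.3 and 88.9 CPM in control. It had 31.5 and 35.1 CPM in the OA condylar cartilage, against 77.6, 75.9 and 82.7 CPM in control, and fell by 1.15 with an SE of 0.21 (adjusted p 0.027). MEST, another paternally expressed gene of growing tissues, had 3.24 and 2.28 CPM in the OA superficial zone, against 10.03, 3.52 and 4.21 CPM in control, and 2.55 and 4.05 CPM in the OA condylar cartilage, against 27.2, 20.9 and 18.7 CPM in control. It fell by 1.94 with an SE of 0.36 (adjusted p 0.027). IGF2BP2, an RNA-binding protein of fetal growth, fell by 1.07 with an SE of 0.23 (adjusted p 0.0495), the weakest of the 14 named lower genes, and it passed in 6 of 24 alternatives. The list's count of 3 was 1 or fewer without any one control superficial zone library, control condylar cartilage 1 or 2, OA superficial zone 1 or OA condylar cartilage 3, in the additive model and in limma-voom.

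The remaining named lower genes had mixed roles. KDELR2, which returns proteins from the Golgi to the endoplasmic reticulum, had 76.1 and 91.9 CPM in the OA superficial zone, against 209, 173 and 164 CPM in control. It had 106 and 140 CPM in the OA condylar cartilage, against 251, 286 and 219 CPM in control, and fell by 1.08 with an SE of 0.21 (adjusted p 0.0341). EME1, a subunit of a DNA repair endonuclease, fell by 1.33 with an SE of 0.27 (adjusted p 0.0359), and CDCA7, a MYC target tied to cell division, fell by 2.03 with an SE of 0.33 (adjusted p 0.0147). KRT80 and KRT18, keratins of epithelia, and A2M, a broad protease inhibitor, were at 0 to 0.405 CPM in every OA sample. Control samples had 0.574 to 2.38 CPM for KRT80, 0.287 to 3.42 CPM for KRT18 and 0.43 to 2.83 CPM for A2M, with adjusted p 0.0236, 0.031 and 0.0332.

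Most of the lower calls were lost when 1 control superficial zone library was left out. Of the 14 named lower genes, 3 still passed without control superficial zone 1, 3 without 2, and 4 without 3, with adjusted p up to 0.121. Of the same genes, 3 passed without control condylar cartilage 1, 9 without 2, and 13 without 3. Without OA condylar cartilage 3, 5 passed, and without OA superficial zone 1, 8 passed. In the 4 fits without another OA library, 13 or 14 passed. The Metazoa_SRP RNA and APOB passed in all 12 of these fits.

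**Figure D4:**
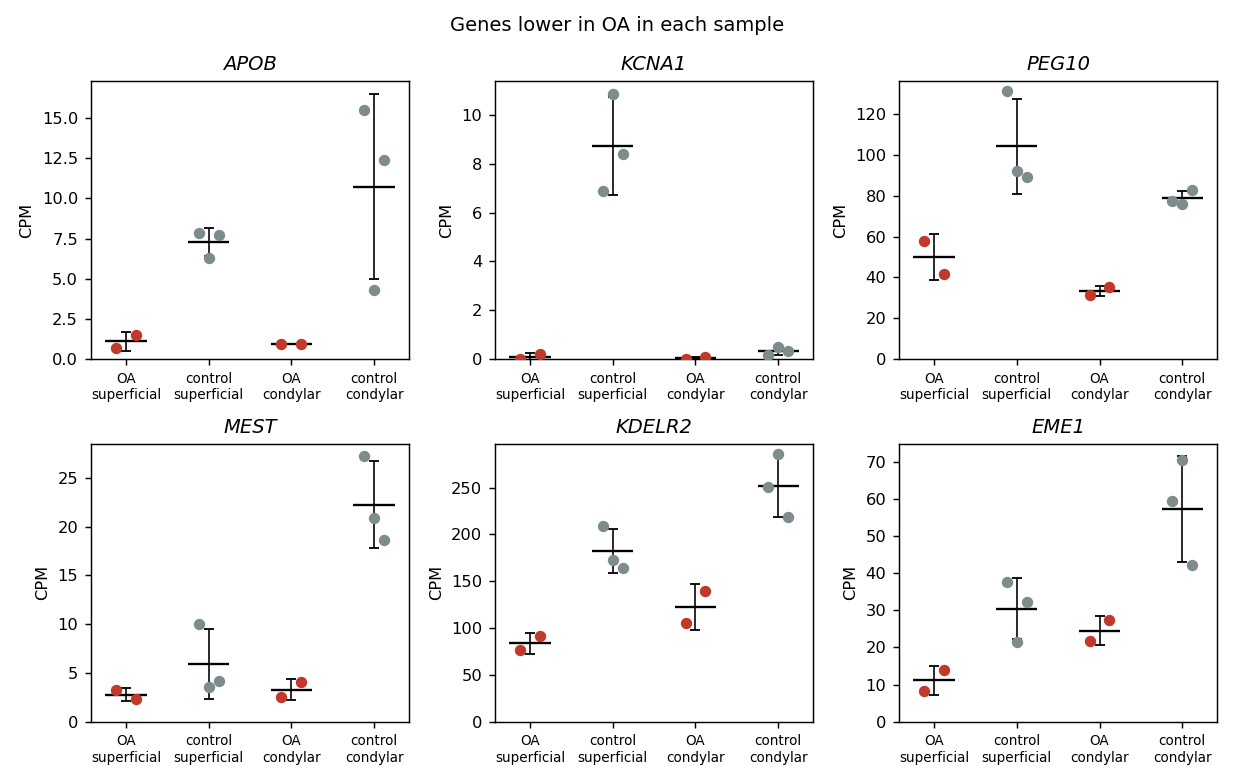
CPM of 6 genes lower in OA in the 2 OA and 3 control samples of each zone, with bars at the group means and whiskers of 1 SD. Every OA sample lies below every control sample of its zone, and KCNA1 is near 0 in all groups but the control superficial zone.

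Ribosomal and small nucleolar RNAs were also higher in OA, a group picked after its values were seen. All 5 tested genes annotated as ribosomal RNA rose, with a median log2 fold change of 5.10. So did 6 of 11 small nucleolar RNAs (median 2.18, all 11 higher in both zones) and 2 of 5 small Cajal body RNAs. Among the 11 were 2 U3 entries with identical counts, neither of which passed. The last 2 classes together took 0.221% of counts in OA superficial zone 1, against 0.0865% and 0.0862% in libraries 2 and 3 of that group. Ribosomal RNA took 0.732% to 3.31% of counts in OA libraries and 0.107% to 0.378% in control libraries. Libraries were depleted of ribosomal RNA, per the labels, and the part of this remaining share in the other results was not tested.

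STMN2, CELF3, GRIA2 and DCX were among the higher genes and were also picked after their values were seen. STMN2, a microtubule regulator of axons, CELF3, an RNA-binding protein of brain, and GRIA2, a glutamate receptor subunit, were undetected in all 6 control samples. STMN2 had 2.57 and 0.852 CPM in the OA superficial zone and 0.978 and 0.929 CPM in the OA condylar cartilage, at least 18.4-fold and 9.47-fold higher than control (adjusted p 0.027). CELF3 had 1.62 and 0.797 CPM in the OA superficial zone and 1.79 and 1.06 CPM in the OA condylar cartilage, at least 13.0-fold and 14.2-fold higher (adjusted p 0.0231). GRIA2 had 0.577 to 2.57 CPM in the 4 OA samples (adjusted p 0.0365), and DCX, doublecortin, rose by 2.79 ± 0.51 (adjusted p 0.0236). In the list of Schwann cell and nerve genes none of 11 passed.

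Of the 48 gene lists, 19 held a gene that passed and 29 held none. The lists with none covered 499 tested entries, of which 74 had an unadjusted p under 0.05. Skeletal muscle genes had opposite signs for all 13 members, with medians of 3.57 in the superficial zone and -4.33 in the condylar cartilage. The opposite sign rested on control condylar cartilage 3, without which the condylar cartilage median was 1.83. Cell cycle genes had none of 30 past the test, a median of -1.89 in the superficial zone and 0.53 in the condylar cartilage, and 15 at an unadjusted p under 0.05.

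**Figure D5:**
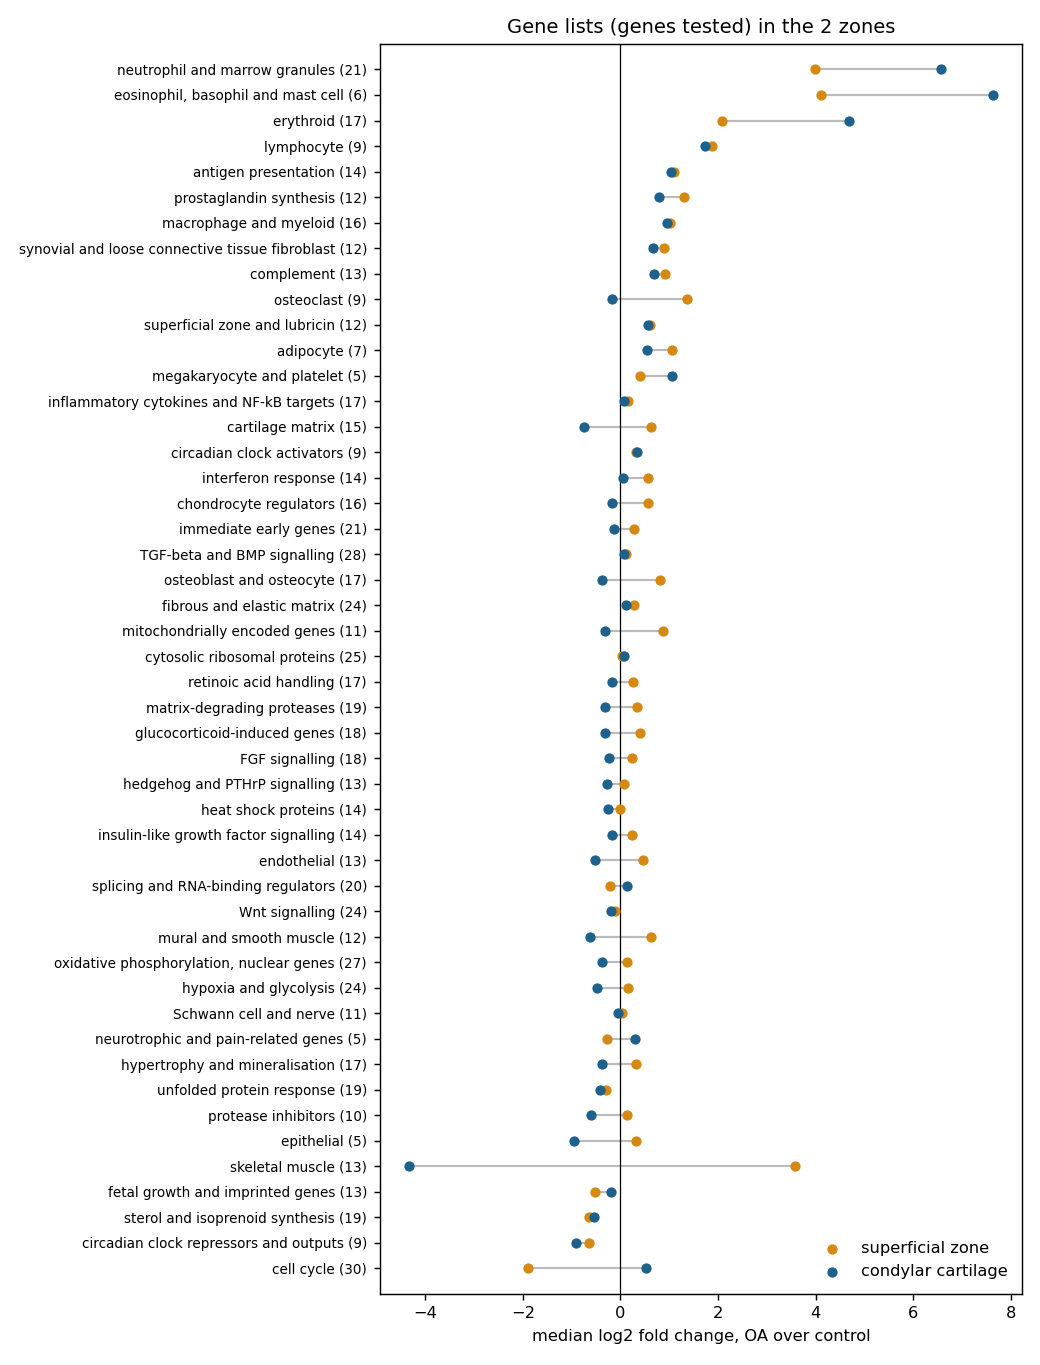
Median log2 fold change of OA over control for each of 48 gene lists in the superficial zone (orange) and the condylar cartilage (blue), with the number of genes tested in parentheses. The neutrophil and eosinophil lists have the 2 highest medians in both zones, and the skeletal muscle list has medians of 3.57 in the superficial zone and -4.33 in the condylar cartilage, which is 1.83 without control condylar cartilage 3.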

How the data were processed

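RNA from 12 wild-type rabbit libraries was depleted of ribosomal RNA and made into directional libraries, per the labels' protocols. Per the submitters' processing notes, the tools were MultiQC 1.13, DESeq2 1.26.0, Salmon 1.1.0, STAR 2.7.9a, Trim Galore 0.6.7 and StringTie 2.1.0, with OryCun2.0, in no stated order. The deposited table holds an estimated count for 14621 genes in whole numbers, which the file headers call both normalized and raw, so they were used as raw, with deposited TPM and log2 TPM columns that were not used here. Symbols came from the deposited table (9813 genes) or RefSeq names of another assembly (1075), so no coordinates are given.

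The main test was edgeR's quasi-likelihood F test (version 4.0.16, under R 4.3.3) after TMM scaling and filterByExpr at a minimum count of 10, with the 4 groups as a factor, the averaged contrast, and Benjamini-Hochberg adjustment over 14438 genes at a threshold of 0.05. An approximate SE was taken as the size of the log2 fold change over the root of F. The near-duplicate pairs, labelled as biological replicates, were summed because they varied far less than other pairs, though still beyond counting noise. Named genes were the 14 of smallest p per direction whose groups did not overlap, up to 5 per list that passed (3 where none did), and the OA panel, some of which are not reported here. Genes, lists and libraries were chosen with earlier results of these data known. No label names an animal per library, so p-values reflect only the spread among samples, which may be technical. Alternatives used DESeq2 1.42.0 and limma 3.58.1, other scalings and filters, 12 separate libraries, a replicate block and each library left out. The method was tested on simulated data.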

Additional observations from a re-analysis of the deposited data

How the results depend on the processing

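Counts of higher and lower genes moved with the number of samples and the tool. With 12 separate libraries they were 458 and 136, with 30 of opposite sign, and all 176 and 18 genes of the main fit were among them. DESeq2 gave 436, 89 and 14, and limma-voom 77, 2 and 0. With OA superficial zone 1 and control condylar cartilage 3 left out, the counts were 572, 378 and 59. A minimum count of 50 gave 10 lower genes. Leaving out 1 library at a time gave 35 to 402 higher, 5 to 63 lower and 0 to 11 of opposite sign. The fewest higher genes came without control superficial zone 1 and the most without control condylar cartilage 3. The cause of these shifts was not tested, and part of these fits also held fewer samples. Library totals without TMM moved the median log2 fold change over all genes to -0.237 in the superficial zone and 0.228 in the condylar cartilage, with 146 higher and 18 lower. First library of each pair, the additive model, median-of-ratios factors, no filter and protein-coding genes only gave 144 to 174 higher and 12 to 21 lower. No named gene that passed changed the sign of its averaged log2 fold change in any alternative. The signs within the zones were less stable. Of the 176 higher genes, 162 were higher in both zones without the 2 libraries that stood apart, and 165 without OA superficial zone 1.

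Whether same-numbered samples were paired could not be settled. Deviations of same-numbered samples from their group means correlated at -0.262 to 0.291 over 12 pairs, and 9 of 24 comparisons were best with their own number. Each OA group holds a near-duplicate pair among few libraries, so these correlations cannot decide the pairing. The fit on 12 libraries with a replicate block gave 355 higher, 90 lower and 27 of opposite sign. Depth limits the genes with a few counts per library, whose folds are given as bounds or ratios.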

Other observations

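Beyond the lists, and picked after their values were seen, further genes of blood cells were among those that rose. Red cell genes were KEL, NFE2, BPGM, FECH, TAL1, DMTN, TMCC2 and SLFN14, and leukocyte genes were PTPRC, IKZF1, CSF2RB, MYO1F, PIK3CG, CLEC5A and AOAH. PTPRC, the pan-leukocyte phosphatase CD45, had 9.999 and 9.12 CPM in the OA superficial zone, against 2.29, 4.71 and 5.95 CPM in control. It had 63.1 and 34.4 CPM in the OA condylar cartilage, against 16.1, 12.6 and 16.1 CPM in control (log2 fold change 1.42 ± 0.29, edgeR adjusted p 0.0364). CD36, a fatty acid transporter of macrophages, platelets and adipocytes, had 5.81 and 10.4 CPM in the OA superficial zone, against 1.42, 0.898 and 0.616 CPM in control. In the condylar cartilage it had 24.7 and 9.82 CPM in OA and 0.893, 2.22 and 3.51 CPM in control (log2 fold change 3.01 ± 0.43, adjusted p 0.00834).

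Without the 2 libraries that stood apart, the 24 tested genes of fibrous and elastic matrix had a median log2 fold change of 0.232. LOXL2 was lower at -1.04, while FBLN2, MFAP4, COL14A1, FBN1 and DCN were higher, at 1.31, 1.75, 1.72, 1.135 and 0.93. DCN had a change of 0.02 in the condylar cartilage. In the same fit the 12 tested genes of synovial and loose connective tissue fibroblasts had a median of 1.22. Among them MFAP5 was at 1.94 and DPT at 1.55. In the same fit WIF1, a secreted Wnt inhibitor, had a log2 fold change of -2.37, with -3.72 in the superficial zone and -1.01 in the condylar cartilage. The hedgehog receptor and target genes PTCH1 and GLI1 were at -1.56 and -1.27. Their change was mostly in the superficial zone, with -2.61 and -2.30 there against -0.51 and -0.24 in the condylar cartilage. C3, the central complement protein, was higher at 2.00. Of these, none passed with all libraries, and that fit also gave higher skeletal muscle genes, such as ACTA1 at 3.42.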
